A study of Mus musculus with 45 samples.

Results

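The BCL2 family genes Bcl2, Bcl2l1, Mcl1, Bcl2l11, Bak1, Pmaip1, Bid, Bad, Bok and Bmf were followed across mouse embryonic stem cells (ESCs) that carry deletions of the lncRNA gene 5430416N02Rik. They were taken by their symbols from 2 tables of RNA-seq values, and all 10 of the 33924 genes listed were found and varied in both tables. The cells were feeder-free D3 ESCs (strain label 129) kept with LIF, sampled in 8 groups of 3 biological replicates. In ΔPG cells the promoter and gene body of 5430416N02Rik were replaced by a PGK-puro cassette, and in ΔG cells the gene body alone was replaced by a GFP-IRES-Puro cassette. Each line was sampled as heterozygous and as homozygous cells, treated for 48 h with DMSO (ES) or with 2 µM retinoic acid (RA). Heterozygous cells carry 1 deleted allele and a cassette too, and no unedited cells entered these comparisons. The paper describes 2 independent clones of each genotype, which it used to characterize phenotypes. The study names 1 heterozygous clone (He1) and 1 homozygous clone (Ho1) for these libraries, so the genotype and the clone cannot be told apart. The values are regularized log (rlog) values, which are on the log2 scale and pull the differences of genes with few reads toward 0, and each table was normalized and read on its own. Depth per sample is unknown, since the values carry no counts.

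Whether a cell lives or dies by the mitochondrial route is decided between members of the BCL2 family. The pore-forming members are Bak1, Bok and their relative Bax, and the survival members (Bcl2, Bcl2l1, which encodes Bcl-xL, and Mcl1) hold Bak1 and Bax in check. Pores in the outer mitochondrial membrane release cytochrome c, which starts the caspases. The BH3-only members (Bcl2l11, which encodes Bim, Pmaip1, which encodes Noxa, Bid, Bad and Bmf) sense stress, and bind the survival members or activate Bak1 and Bax. Undifferentiated ESCs are known to be sensitive to apoptosis.

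A gene was called in a comparison at a limma adjusted p under 0.1 (Benjamini-Hochberg, over all genes that varied) and an absolute log2 difference over 0.5. Bmf and Bcl2l11, genes of BH3-only proteins, and Bcl2, the gene of a survival protein, rose in all 4 comparisons of RA with ES, and Bid fell in all 4. Bok rose in 3 of the 4, and the survival gene Bcl2l1 rose in the same 3 by differences near the limit. Bak1 was called lower in heterozygous ΔPG cells only, and Mcl1, Pmaip1 and Bad were called in none. Between genotypes, members were called in undifferentiated ΔPG cells, where Bok, Bak1, Bcl2l1 and Bmf were lower in homozygous cells, and these 4 calls were lost once trends with GC content had been removed. No member was called between genotypes after RA or in ΔG cells.

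In mouse build NCBIM37, Bmf (chr2:118354493-118375423, minus strand), Bcl2l11 (chr2:127951774-127988283, plus strand) and Bcl2l1 (chr2:152593052-152657464, minus strand) lie on chromosome 2, and Bcl2 (chr1:108434755-108610851, minus strand) and Bok (chr1:95582271-95592339, plus strand) on chromosome 1. Bid lies at chr6:120841948-120866871 and Bak1 at chr17:27156755-27165954, both on the minus strand, Mcl1 at chr3:95462643-95467099 and Bad at chr19:7016351-7026388, both on the plus strand. The upstream stretches of Bmf, Bcl2l11, Bok and Bid are shown because these are the BH3-only and pore-forming members with the widest RA differences. They are the 250 bases before the outermost RefSeq start of each gene (GRCm38.p6), printed 5′ to 3′ on the gene's own strand, and capitals mark the GC box GGGCGG on either strand. The Bmf window lies at chr2:118549687-118549936 on the minus strand, that of Bcl2l11 at chr2:128125788-128126037 on the plus strand, that of Bok at chr1:93685325-93685574 on the plus strand and that of Bid at chr6:120916825-120917074 on the minus strand.
Bmf: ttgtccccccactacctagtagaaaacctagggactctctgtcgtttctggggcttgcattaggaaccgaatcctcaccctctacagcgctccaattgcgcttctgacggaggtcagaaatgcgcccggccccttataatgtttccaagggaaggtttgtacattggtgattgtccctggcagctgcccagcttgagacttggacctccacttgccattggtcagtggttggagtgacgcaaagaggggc
Bcl2l11: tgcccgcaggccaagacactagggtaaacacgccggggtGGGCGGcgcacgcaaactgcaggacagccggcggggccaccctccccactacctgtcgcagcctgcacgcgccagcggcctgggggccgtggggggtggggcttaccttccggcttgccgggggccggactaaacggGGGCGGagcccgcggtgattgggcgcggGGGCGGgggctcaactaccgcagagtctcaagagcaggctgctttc
Bok: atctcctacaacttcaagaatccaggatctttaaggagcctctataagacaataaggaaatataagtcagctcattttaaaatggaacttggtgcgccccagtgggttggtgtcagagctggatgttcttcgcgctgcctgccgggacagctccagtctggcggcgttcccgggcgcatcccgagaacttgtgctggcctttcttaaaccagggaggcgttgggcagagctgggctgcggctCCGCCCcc
Bid: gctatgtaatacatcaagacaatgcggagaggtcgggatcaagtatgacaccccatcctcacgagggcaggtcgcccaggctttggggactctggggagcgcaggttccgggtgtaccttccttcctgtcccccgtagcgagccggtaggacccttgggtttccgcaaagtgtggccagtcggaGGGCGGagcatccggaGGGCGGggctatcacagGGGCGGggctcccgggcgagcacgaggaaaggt

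RefSeq windows were listed for 9 of the 10 members, and Pmaip1 had none. Bmf and Bcl2l1 had 3 starts listed each and Bcl2l11 and Bad 2 each, and only the window of the outermost start was searched. In these windows the genes that rose with RA did not share a GC box: the window held 7 for Bcl2, 3 for Bcl2l11 and 1 for Bok, and 0 for Bmf and Bcl2l1. Bid, which fell, held 3, Bad held 3, Mcl1 held 1 and Bak1 held 0. Of all 32851 windows of this length, 32.7% held at least 1 GC box. Bmf held the CCAAT box 3 times and Bcl2l11 held it 1 time, against 33.8% of all windows with at least 1. The letters AGGTCA, the half-site that nuclear receptors such as the retinoic acid receptors can bind, were found on either strand in the Bmf window alone among the 9, and in 14% of all windows. The letters TGTTTAC, a motif of FOXO factors, were found in the Bcl2l11 window alone among the 9, and in 3.17% of all windows. TATAAA, in 12.4% of all windows, and the E-box CACGTG, in 6.02%, were in 0 of the 9. These are matches of letters in a short window, and binding was not measured.

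The labels were checked first. 5430416N02Rik was lower in homozygous than in heterozygous cells in all comparisons, by -2.30 (ES) and -1.81 (RA) on the log2 scale in ΔPG and by -2.79 and -2.75 in ΔG. Of 8 markers of pluripotent ESCs, 8, 7, 8 and 8 fell with RA in heterozygous ΔPG, homozygous ΔPG, heterozygous ΔG and homozygous ΔG cells, and all 7 RA response markers rose in each. The 7 markers of extraembryonic endoderm rose in each as well. Their summed rlog value ranged from 21.83 to 25.10 in the ΔPG ES samples and from 40.84 to 44.16 in the ΔPG RA samples, and from 21.69 to 23.79 and from 43.67 to 45.99 in ΔG. Of 5 fibroblast markers, 2, 4, 4 and 3 rose with RA, and 1, 1, 0 and 0 fell, the faller being Thy1 (-0.67 and -0.53). No marker of these lists was at 0, the lowest group mean being 0.70 in ΔPG. In bulk samples, fewer cells of a type and less RNA per cell cannot be told apart. The part of these other cell types in the RA differences was not tested.

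Per length of exon, Mcl1 was the most abundant member in every group and Bcl2 the least abundant. In heterozygous ES samples of the ΔG table, the rlog level per kb of exon was 9.02 for Mcl1, followed by Bak1 at 6.41, Bid at 5.73, Bcl2l1 at 5.01, Bad at 4.17, Pmaip1 at 4.06, Bok at 3.55, Bmf at 2.97, Bcl2l11 at 1.48 and Bcl2 at -0.87. Bad and Pmaip1 differed by less than the SD of Pmaip1 (0.17, n = 3), and all other neighbours by more than their SDs. After RA, Bmf stood at 5.94 per kb and had moved from the eighth place to the third, while Bid had moved from the third place to the sixth at 4.53. In the ΔPG table the order in heterozygous ES samples was Mcl1, Bak1, Bid, Bcl2l1, Bok, Bad, Bmf, Pmaip1, Bcl2l11 and Bcl2. There Bok and Bad, at 4.33 and 4.22 per kb, differed by less than the SD of Bad (0.17, n = 3).

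**Figure D1:**
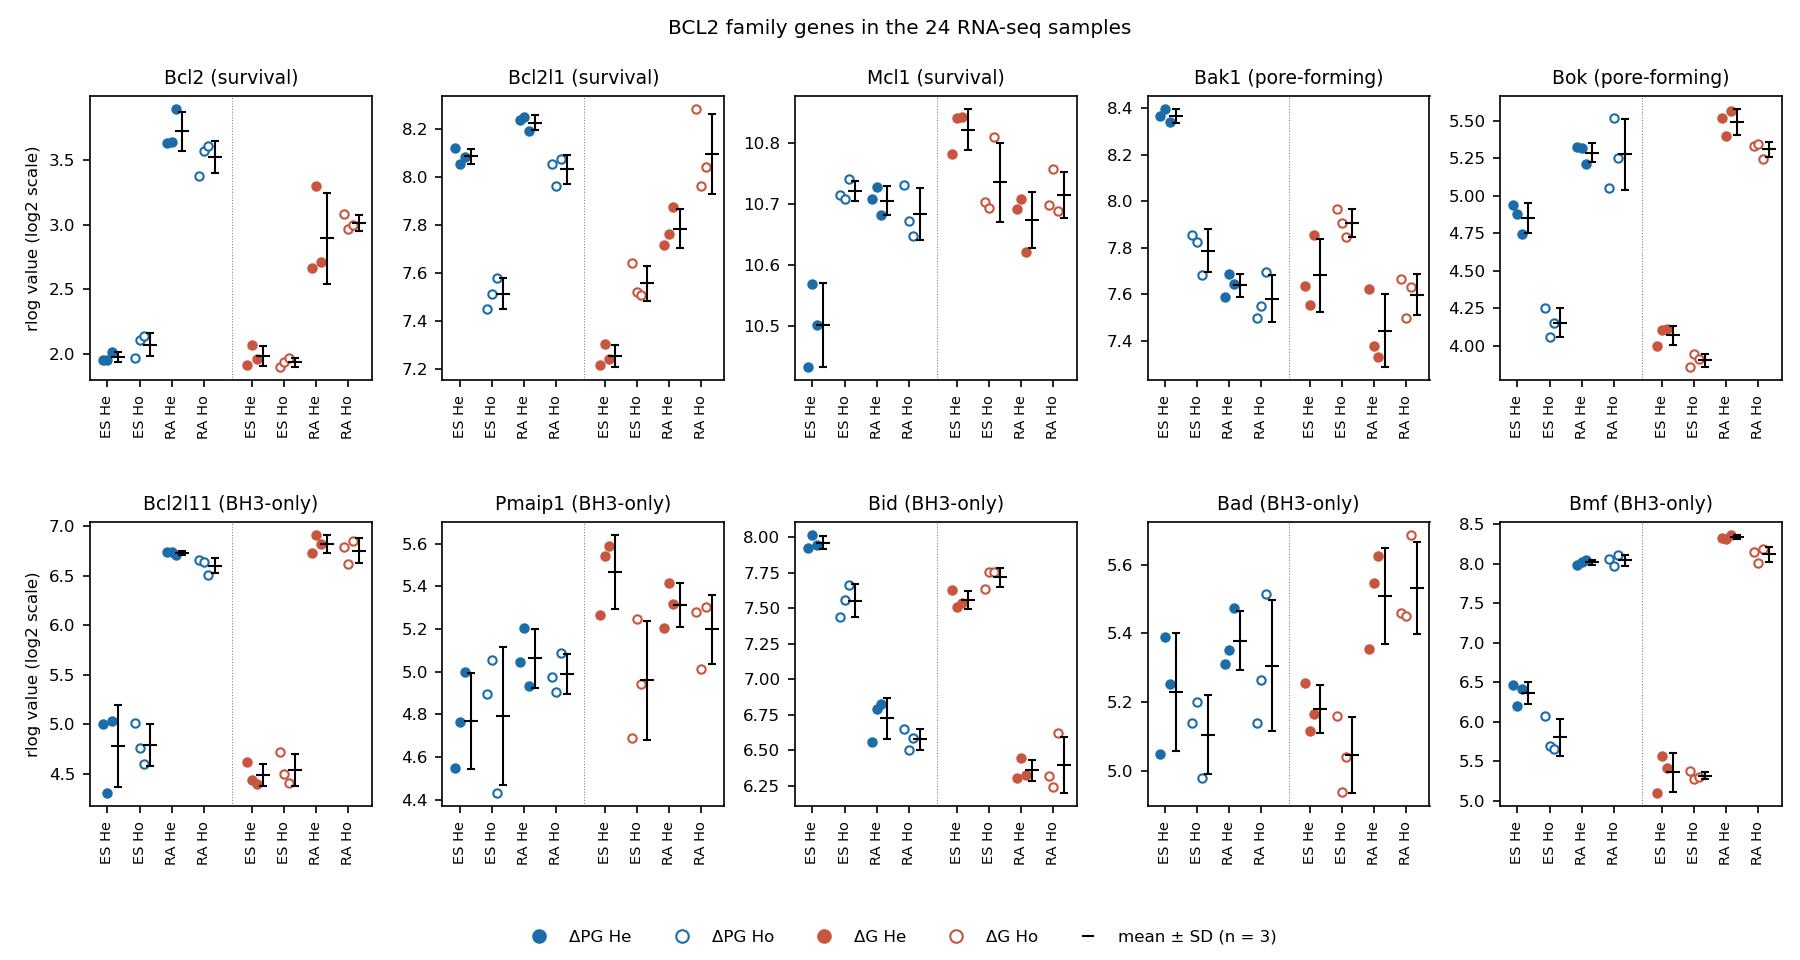
Rlog values (log2 scale, vertical axis, its range differing by panel) of the 10 members in the 24 samples, by treatment and genotype (He heterozygous, Ho homozygous), with ΔPG in blue and ΔG in red. Points are samples and bars the mean ± SD (n = 3). Bmf, Bcl2l11 and Bcl2 sit higher in every RA sample than in any ES sample of the same table, and Bid sits lower.

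Bmf encodes a BH3-only protein that binds survival members. In ΔG cells Bmf stood at 5.09, 5.57 and 5.41 in heterozygous and at 5.38, 5.28 and 5.31 in homozygous ES samples, and at 8.33, 8.31 and 8.36 and at 8.15, 8.01 and 8.19 in the RA samples. In ΔPG cells it stood at 6.47, 6.20 and 6.41 and at 6.07, 5.69 and 5.65 in ES, and at 7.99, 8.02 and 8.05 and at 8.06, 7.96 and 8.10 in RA. No RA sample overlapped an ES sample, and the lowest ES values were those of ΔG cells. Bmf rose by 2.97 ± 0.107 (SE) in heterozygous and by 2.79 ± 0.0881 in homozygous ΔG cells (limma adjusted p = 5.14e-11 and 1.43e-14), which is 7.86-fold and 6.94-fold on the rlog scale. It rose by 1.66 ± 0.0707 and 2.24 ± 0.106 in ΔPG cells (limma adjusted p = 8.95e-07 and 1.32e-08), or 3.15-fold and 4.72-fold.

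Bcl2l11 encodes Bim, a BH3-only protein that binds every survival member of the family. Its ΔG values were 4.62, 4.44 and 4.40 in heterozygous and 4.72, 4.50 and 4.41 in homozygous ES samples, against 6.73, 6.91 and 6.82 and 6.79, 6.61 and 6.85 in RA. Its ΔPG values were 5.01, 4.30 and 5.03 and 5.02, 4.76 and 4.60 in ES, against 6.73, 6.74 and 6.71 and 6.65, 6.64 and 6.51 in RA. The heterozygous ΔPG ES samples spread most, with replicate 2 below the others, and still no RA sample reached down to an ES sample. The RA difference was 2.33 ± 0.101 and 2.21 ± 0.116 in heterozygous and homozygous ΔG cells, and 1.94 ± 0.187 and 1.81 ± 0.118 in ΔPG cells (limma adjusted p = 3.08e-10, 1.99e-11, 7.03e-05 and 1.9e-07).

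Bid, which links the death receptors to mitochondria once caspase-8 has cleaved its product, went the other way. In ΔG cells it stood at 7.63, 7.51 and 7.53 and at 7.64, 7.75 and 7.76 in heterozygous and homozygous ES samples, and at 6.31, 6.44 and 6.33 and at 6.32, 6.24 and 6.62 in RA. In ΔPG cells the ES values were 7.92, 8.01 and 7.95 (heterozygous) and 7.44, 7.55 and 7.67 (homozygous), and the RA values 6.56, 6.79 and 6.82 and 6.65, 6.50 and 6.59. Every RA sample lay below every ES sample. Bid fell, with a difference of -1.20 and -1.32 in ΔG and of -1.24 and -0.97 in ΔPG heterozygous and homozygous cells and standard errors between 0.0734 and 0.0971 (limma adjusted p = 1.82e-08, 2.07e-09, 5.09e-06 and 1.06e-06). The ratio of RA to ES was 0.436, 0.4, 0.425 and 0.51 in the same order.

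The remaining BH3-only members did not pass the limits with RA. Pmaip1 ranged from 4.43 to 5.21 in ΔPG and from 4.69 to 5.59 in ΔG, and its RA differences were 0.29, 0.20, -0.15 and 0.24 in heterozygous and homozygous ΔPG and ΔG cells (limma adjusted p between 0.11 and 0.371). Bad, a BH3-only gene whose product is held back by phosphorylation under growth factors, ranged from 4.98 to 5.51 in ΔPG and from 4.94 to 5.69 in ΔG. The RA difference of Bad was 0.49 ± 0.118 in homozygous ΔG cells (limma adjusted p = 0.00209), just inside the limit of 0.5. Bad was called there in 5 of 16 alternative settings, among them without ES replicate 1 (0.54), RA replicate 1 (0.52) or RA replicate 2 (0.53). With trends against GC content removed the difference was 0.24 (limma adjusted p = 0.101). After quantile normalization it was 0.20 (limma adjusted p = 0.172), and Bad was called in neither.

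Among the survival members, Bcl2 rose from a low level. Its ES values were 1.95, 1.95 and 2.01 in heterozygous and 1.97, 2.1 and 2.14 in homozygous ΔPG cells, and its RA values 3.63, 3.64 and 3.90 and 3.38, 3.58 and 3.61. In ΔG cells it stood at 1.91, 2.07 and 1.96 and at 1.89, 1.94 and 1.96 in ES, and at 2.67, 3.30 and 2.72 and at 3.08, 2.97 and 3.00 in RA. RA and ES samples did not overlap in either table. The rise was 1.75 ± 0.126 and 1.45 ± 0.156 in heterozygous and homozygous ΔPG cells and 0.91 ± 0.168 and 1.08 ± 0.132 in ΔG cells (limma adjusted p = 1.42e-05, 1.21e-05, 0.000437 and 1.61e-06). Values this low are those that the rlog transformation pulls in most.

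Bcl2l1, whose long product is the survival protein Bcl-xL, moved by a small amount that lay near the limit. It stood at 7.22, 7.30 and 7.24 (heterozygous) and 7.64, 7.52 and 7.51 (homozygous) in ΔG ES samples and at 7.72, 7.76 and 7.87 and 8.28, 7.96 and 8.04 in RA. In ΔPG it stood at 8.12, 8.05 and 8.08 and 7.45, 7.51 and 7.58 in ES and at 8.24, 8.25 and 8.19 and 8.06, 7.96 and 8.07 in RA. RA samples were above ES samples of the same genotype in both tables, without overlap. The rise was 0.53 ± 0.0698 and 0.54 ± 0.0824 in ΔG and 0.52 ± 0.0598 in homozygous ΔPG cells (limma adjusted p = 2.27e-05, 2.44e-05 and 2.29e-05), and the difference was 0.14 ± 0.0335 in heterozygous ΔPG cells, under the limit. Whether these 3 rises passed the limit of 0.5 turned on single libraries. The calls were lost without RA replicate 3 in heterozygous ΔG (0.49) and without RA replicate 1 in homozygous ΔG (0.44). In homozygous ΔPG cells the call was lost without ES replicate 1 (0.48) or RA replicate 3 (0.50). The limma adjusted p stayed between 0.000108 and 0.000722 in these fits. With trends against GC content removed, the 3 rises were 0.46, 0.46 and 0.46 and none was called.

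Mcl1, the gene of a short-lived survival protein, had the smallest span of the 10 members in both tables. It ranged from 10.43 to 10.74 in ΔPG and from 10.62 to 10.84 in ΔG, which is 0.31 and 0.22 over 12 samples each. Its RA differences were 0.20 ± 0.0346 and -0.04 ± 0.03 in heterozygous and homozygous ΔPG cells, and -0.15 ± 0.035 and -0.02 ± 0.0346 in ΔG cells. Among these, those of heterozygous cells had a limma adjusted p of 0.00164 and 0.00297 and stayed under the limit of 0.5, and quantile normalization turned the sign of the last 3.

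The pore-forming members went in different directions. Bok, a relative of Bax and Bak1 that does not need other BH3 proteins to act, stood at 4.00, 4.10 and 4.11 and 3.86, 3.94 and 3.91 in heterozygous and homozygous ΔG ES samples and at 5.52, 5.39 and 5.56 and 5.33, 5.34 and 5.25 in RA. In ΔPG cells it stood at 4.94, 4.88 and 4.74 and 4.25, 4.06 and 4.15 in ES and at 5.32, 5.32 and 5.21 and 5.05, 5.52 and 5.25 in RA. The homozygous ΔPG ES samples lay below the heterozygous ones, and the RA samples of both genotypes overlapped. Bok rose with RA by 1.42 ± 0.108 and 1.41 ± 0.119 in ΔG and by 1.12 ± 0.144 in homozygous ΔPG cells (limma adjusted p = 9.47e-08, 1.47e-08 and 5.17e-05). In heterozygous ΔPG cells the difference was 0.43 ± 0.0849 (limma adjusted p = 0.00348), under the limit, and it was 0.67 and called with the GC trend removed, but 0.18 (limma adjusted p = 0.0994) and not called after quantile normalization.

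Bak1, whose product sits in the outer mitochondrial membrane, fell with RA in heterozygous ΔPG cells. There it stood at 8.36, 8.40 and 8.34 in ES and at 7.59, 7.69 and 7.64 in RA, and in homozygous ΔPG cells at 7.86, 7.83 and 7.68 and at 7.50, 7.55 and 7.70. In ΔG cells it stood at 7.64, 7.55 and 7.85 (heterozygous) and 7.97, 7.91 and 7.85 (homozygous) in ES and at 7.62, 7.38 and 7.33 and 7.66, 7.50 and 7.63 in RA. The 3 heterozygous ΔPG ES samples were the highest of their table. The RA difference was -0.73 ± 0.0375 in these cells (limma adjusted p = 2.37e-06) and -0.47, no longer called, with the GC trend removed. In homozygous ΔPG and in heterozygous and homozygous ΔG cells it was -0.21, -0.24 and -0.31, and not called.

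**Figure D2:**
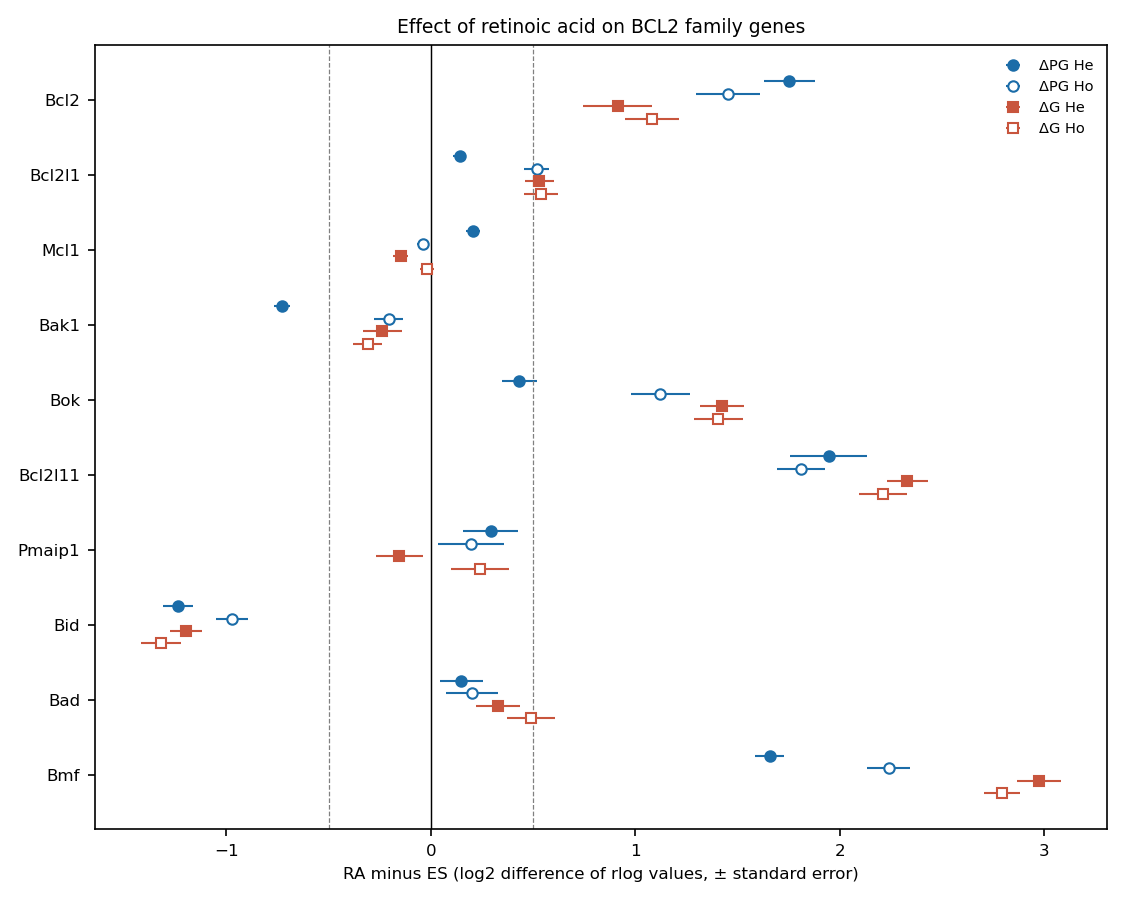
Difference RA minus ES (log2 difference of rlog values, horizontal axis) of the 10 members in 4 comparisons, with bars for the standard error from limma (3 against 3 samples) and dashed lines at the limit of 0.5. Bmf, Bcl2l11 and Bcl2 lie to the right of the limit and Bid to the left of it in all 4, while Mcl1 stays near 0.

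In all, 3 members rose and 2 fell with RA in heterozygous ΔPG cells, 5 rose and 1 fell in homozygous ΔPG cells, and 5 rose and 1 fell in ΔG cells of each genotype. Of all genes tested, 18.0% were called higher and 13.6% lower in heterozygous ΔPG cells, 16.5% and 11.3% in homozygous ΔPG cells, 17.7% and 11.7% in heterozygous ΔG cells, and 17.0% and 12.1% in homozygous ΔG cells. The split of the calls over all genes depends on the scaling. In homozygous ΔPG, heterozygous ΔG and homozygous ΔG cells, 3634, 3911 and 3759 genes were higher and 2482, 2588 and 2675 lower, against 2865, 3035 and 2947 higher and 2982, 3292 and 3313 lower after quantile normalization. The members called with RA kept their direction and their call under that scaling. RA and ES samples did not overlap for 8 and 6 of the 10 members in heterozygous and homozygous ΔPG cells and for 8 and 8 in ΔG cells, against 56.1%, 52.7%, 54.5% and 52.6% of all genes. The median RA difference of the 10 members was 0.25, 0.36, 0.43 and 0.51 in heterozygous and homozygous ΔPG and heterozygous and homozygous ΔG cells, against medians of all genes between 0.01 and 0.04.

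Comparing homozygous with heterozygous cells asks what the loss of the second allele of 5430416N02Rik goes with. In undifferentiated ΔPG cells 4 members were lower and 0 higher in homozygous cells, where 6.29% of all genes tested were called lower and 6.87% higher. Among the 11904 genes with a mean of at least 3, 1338 were called lower and 1446 higher. Bok differed by -0.70 ± 0.105, Bak1 by -0.58 ± 0.0523, Bcl2l1 by -0.57 ± 0.0471 and Bmf by -0.56 ± 0.127 (limma adjusted p = 0.00131, 9.17e-05, 5.82e-05 and 0.0112). Bid differed by -0.41 ± 0.0635 (limma adjusted p = 0.0016), under the limit, and the 3 homozygous samples lay below the 3 heterozygous samples for all 5 genes. With Mcl1, the genotypes did not overlap for 6 of the 10 members, against 39.6% of all genes tested. Both sides of the family were among them, the survival gene Bcl2l1 with the pore-forming Bok and Bak1 and the BH3-only Bmf. Mcl1 was 0.22 ± 0.0342 higher (limma adjusted p = 0.00161), and Bcl2, Bcl2l11, Pmaip1 and Bad differed by 0.10, 0.01, 0.02 and -0.12. The Bmf call was lost without homozygous ES replicate 2 (-0.50) or 3 (-0.48). The median difference of the 10 members was -0.27, against 0.0019 over all genes and -0.05 over genes with a mean of at least 3.

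GC content moved with this comparison. Across the 11904 genes whose rlog values averaged 3 or more, the difference of homozygous and heterozygous ΔPG cells in ES was correlated with the GC content of the exons (Pearson's r = -0.705 across genes, which share the same 6 libraries), against -0.00108 in RA and 0.00567 and 0.115 in ΔG. The exons of Bok hold 60.9% GC, those of Bak1 57.1%, of Bmf 54.1% and of Bcl2l1 53.9%, and those of Pmaip1 41.8%, Bcl2 46.3%, Bcl2l11 46.9%, Mcl1 49.1% and Bid 49.9%. The members did not follow this order throughout: Bad, with 59.3%, differed by -0.12 only, and Bid by -0.41. With the trend removed, no member was called: Bok differed by -0.23, Bak1 by -0.19, Bcl2l1 by -0.31 and Bmf by -0.29 (limma adjusted p = 0.189, 0.0038, 4.02e-05 and 0.0378). Bid kept a difference of -0.35 and Mcl1 of 0.23, Pmaip1 went from 0.02 to -0.43, and Bad from -0.12 to 0.32, each under the limit. Bcl2 had no value here, since its mean was under 3.

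**Figure D3:**
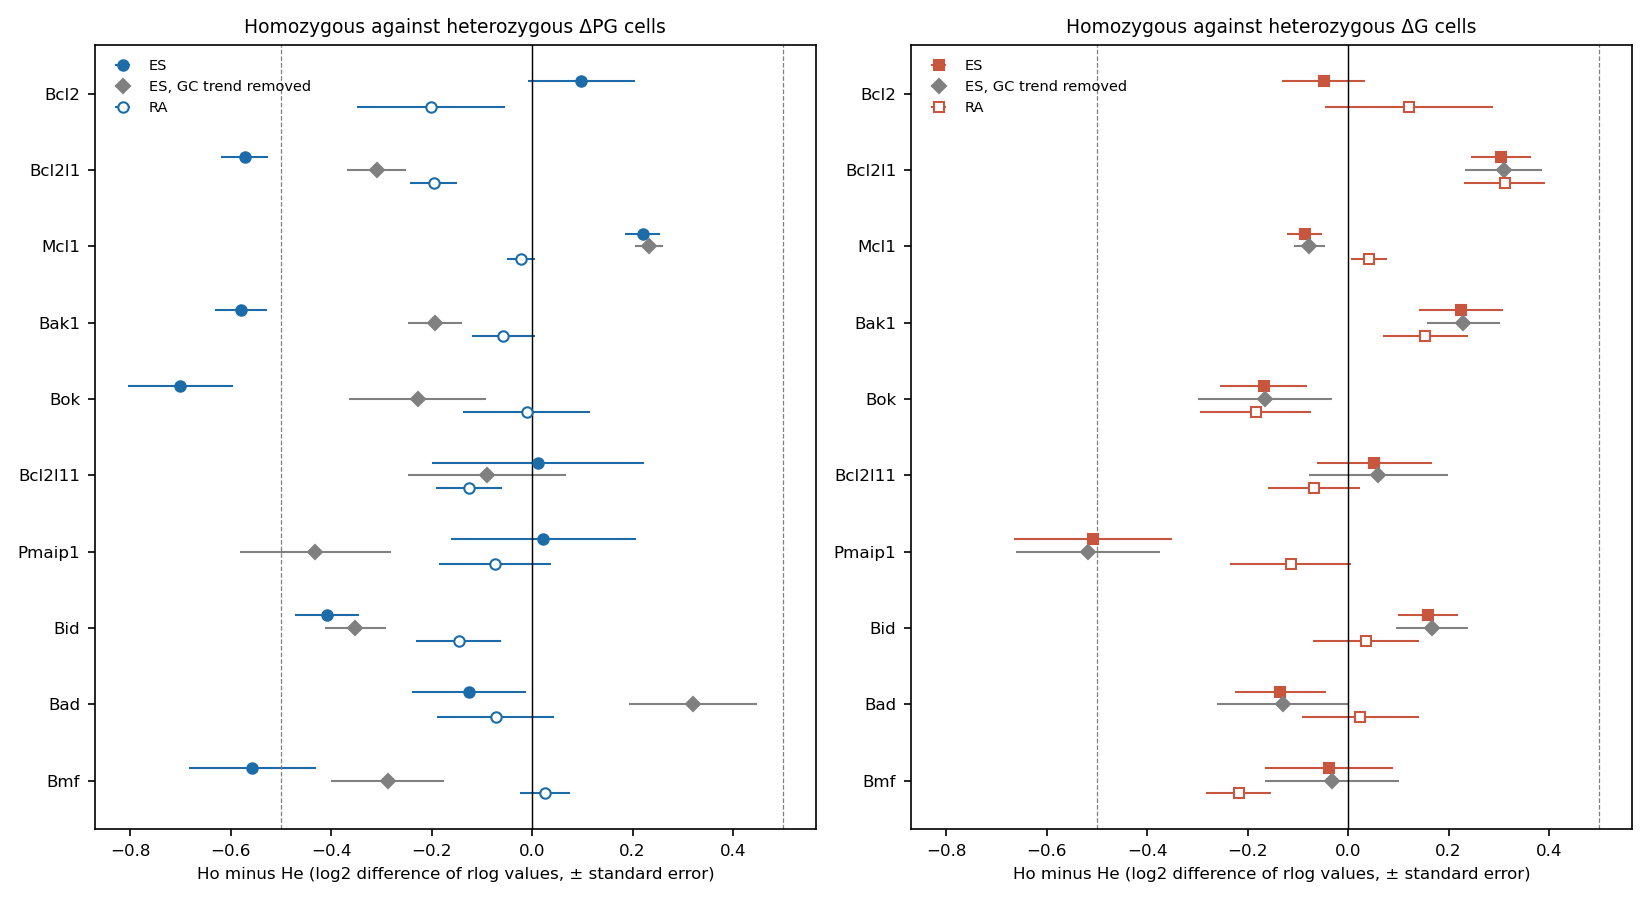
Difference of homozygous (Ho) minus heterozygous (He) cells (log2 difference of rlog values, horizontal axis) of the 10 members in ES (filled) and RA (open), with ΔPG on the left and ΔG on the right. Bars are the standard error from limma (3 against 3 samples), dashed lines the limit of 0.5, and grey diamonds the ES values with the GC trend removed, which bring Bok, Bak1, Bcl2l1 and Bmf of ΔPG inside the limit.

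After RA, limma called 0 members between the genotypes of ΔPG cells. Among the 10, 1 had an unadjusted p under 0.05, against 14.0% of all genes tested, of which 0.241% and 0.605% were called higher and lower. The member with that p was Bcl2l1 at -0.20 ± 0.047 (limma adjusted p = 0.0604), with the 3 homozygous samples below the 3 heterozygous ones.

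In undifferentiated ΔG cells limma called 0 members, where 0.354% of all genes were called higher and 0.630% lower. An unadjusted p under 0.05 was found for 5 of the 10, against 15.4% of all genes. Bcl2l1 was 0.30 ± 0.0599 higher in homozygous cells (limma adjusted p = 0.0467), and Pmaip1 differed by -0.51 ± 0.157 (limma adjusted p = 0.169). Pmaip1 stood at 5.27, 5.54 and 5.59 in heterozygous and at 4.69, 5.25 and 4.94 in homozygous samples, so that homozygous replicate 2 lay just below the lowest heterozygous sample. Pmaip1 was called in 5 of 16 alternative settings. These were without homozygous replicate 2 (-0.65), with all 12 samples in the fit, over genes with a mean of at least 3, and with the GC or length trend removed. After quantile normalization Pmaip1 was at -0.48 (limma adjusted p = 0.281) and not called. After RA, 0 members were called in ΔG with limma, 2 had an unadjusted p under 0.05 against 19.6% of all genes, and 0.676% and 1.46% of all genes were called higher and lower. Bcl2l1 was 0.31 ± 0.0806 higher (limma adjusted p = 0.0187) and Bmf was at -0.22 ± 0.0656 (limma adjusted p = 0.0453), both under the limit of 0.5.

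The effect of RA differed between the genotypes of ΔPG cells for 3 members, where 6.72% of all genes tested were called higher and 7.19% lower. Among the 11904 genes with a mean of at least 3, 1456 were called higher and 1520 lower. Bok and Bmf differed more between RA and ES in homozygous cells (1.12 and 2.24) than in heterozygous cells (0.43 and 1.66), and Bak1 differed less (-0.21 against -0.73). The difference between both RA effects was 0.69 ± 0.168 for Bok, 0.58 ± 0.14 for Bmf and 0.52 ± 0.0833 for Bak1 (limma adjusted p = 0.00739, 0.00663 and 0.000305). The comparison uses the same undifferentiated samples as above and followed GC content as well (Pearson's r = 0.695 across 11904 genes). With the trend removed it was 0.21, 0.32 and 0.14, and no member was called. Bak1 was also not called without ES homozygous replicate 3 (0.47), RA heterozygous replicate 1 (0.50) or RA homozygous replicate 3 (0.46). In ΔG cells limma called 0 members, 2 had an unadjusted p under 0.05 against 14.7% of all genes, and 1.19% and 1.18% of all genes were called higher and lower. The widest ΔG value was that of Pmaip1 at 0.39 ± 0.187 (limma adjusted p = 0.322).

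Pmaip1 is known as a target of p53 together with Bbc3, which encodes Puma, and Bax. Trp53, the gene of p53, stood at 7.15, 6.95 and 7.05 in heterozygous and at 3.83, 4.00 and 4.24 in homozygous ΔPG ES samples, and at 6.06, 6.19 and 5.87 and at 4.06, 3.56 and 3.88 in RA. Homozygous ΔPG cells were lower by -3.02 ± 0.116 in ES and -2.21 ± 0.147 in RA (limma adjusted p = 1.85e-06 and 3.43e-05). In the ΔG table Trp53 ranged from 2.17 to 2.88 over both genotypes. Bbc3 was lower in homozygous ΔPG cells with Trp53, by -1.08 ± 0.165 in ES and by -1.20 ± 0.119 in RA (limma adjusted p = 0.0015 and 0.000425), and Bax by -0.73 ± 0.0573 in ES (limma adjusted p = 4.44e-05), with -0.45 ± 0.0588 in RA. Pmaip1 stood at 4.55, 4.76 and 5.00 in heterozygous and at 4.89, 5.05 and 4.43 in homozygous ΔPG ES samples, which overlap, and differed by 0.02 ± 0.184 in ES and -0.07 ± 0.112 in RA. The ES values belong to the comparison that followed GC content, and the RA values to one that did not. With the GC trend removed, Pmaip1 was at -0.43 ± 0.151 in ES (limma adjusted p = 0.0212), lower in homozygous cells and under the limit. Trp53 was then at -2.82 and Bbc3 at -0.58, both still called, and Bax at -0.25 and no longer called.

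**Figure D4:**
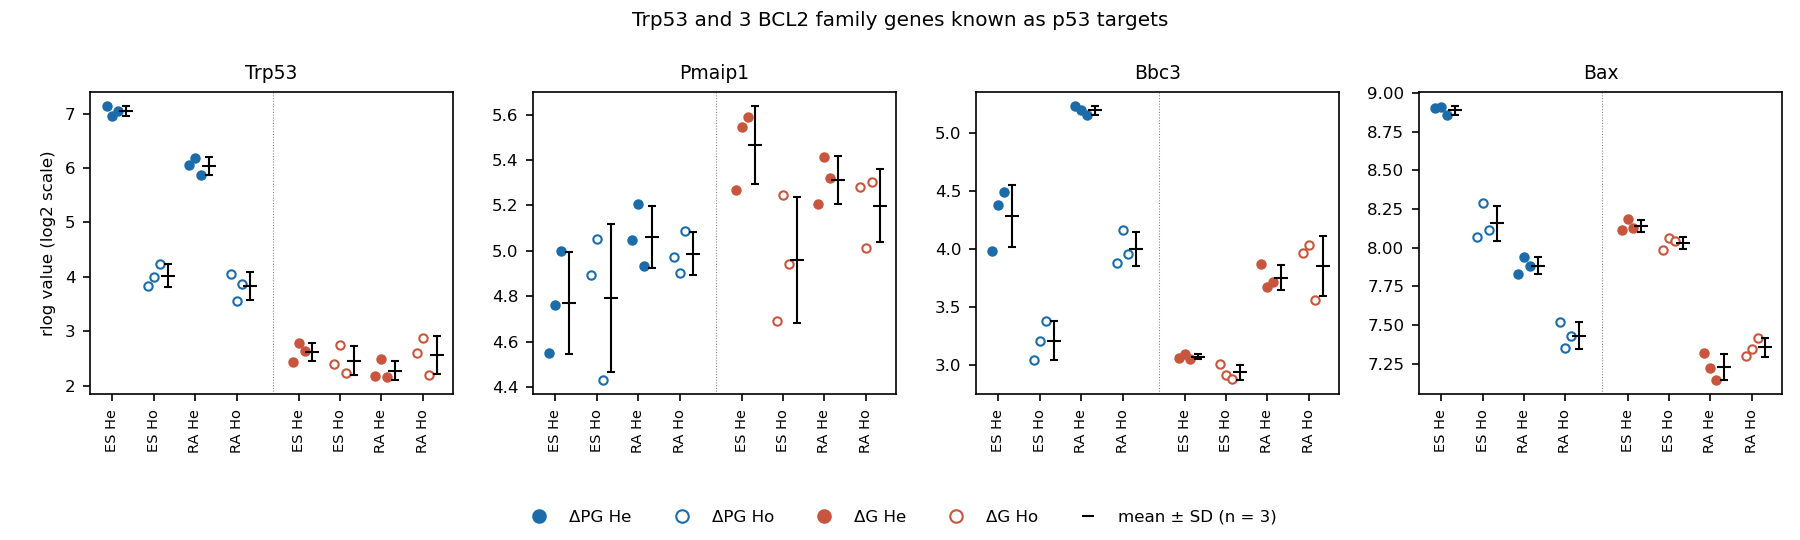
Rlog values (log2 scale, vertical axis, its range differing by panel) of Trp53, Pmaip1, Bbc3 and Bax in the 24 samples, with ΔPG in blue, ΔG in red, heterozygous (He) filled, homozygous (Ho) open, and bars for the mean ± SD (n = 3). Trp53 and Bbc3 are lower in homozygous than in heterozygous ΔPG cells in both treatments, while the Pmaip1 samples overlap. No GC trend was removed from the values plotted.

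Around the 10 members, 5 lists of genes of the same pathway were counted. Beside these counts, 16.5% to 18.0% of all genes tested were called higher and 11.3% to 13.6% lower with RA. The shares were larger among genes with a mean of at least 3, as given above. Of 16 other BCL2 family genes 12 varied, and 2, 4, 4 and 3 of them rose and 3, 3, 3 and 3 fell with RA in heterozygous ΔPG, homozygous ΔPG, heterozygous ΔG and homozygous ΔG cells. The fallers were the same in all 4: Bax (-1.0, -0.73, -0.91 and -0.68), Bcl2l14 (-1.74, -1.37, -1.06 and -1.18), and Bnip3, a hypoxia-induced mitophagy gene (-1.06, -1.61, -1.73 and -1.42). Bbc3 rose in all 4, by 0.91, 0.79, 0.68 and 0.92. The median of the list was 0.11, 0.16, 0.08 and 0.18, against the medians of all genes given above. Of 13 genes of the mitochondrial pathway, 2, 1, 2 and 3 rose and 6, 3, 4 and 3 fell, with medians of -0.40, -0.09, -0.10 and -0.13. Apaf1, the scaffold of the apoptosome, rose by 1.23, 0.98, 1.25 and 1.19, and Vdac1, a channel of the outer mitochondrial membrane, fell (-1.05, -1.04, -0.97 and -1.31). Of 8 death receptor genes, 2 rose in each comparison: Cflar, the inhibitor of caspase-8 activation, by 0.84, 0.84, 0.92 and 0.87, and the TRAIL receptor Tnfrsf10b by 0.98, 0.87, 0.65 and 1.02. In that list the adaptor gene Tradd fell in heterozygous ΔPG cells (-0.89), limma called 0 others lower, and the medians were 0.09, 0.16, 0.27 and 0.16. Of 5 IAP genes, which restrain caspases, Xiap rose (0.57) and Birc3 fell (-0.53) in heterozygous ΔPG cells and Birc3 fell in homozygous ΔPG cells (-0.51), limma called 0 in ΔG, and the medians were 0.12, -0.05, -0.03 and -0.18. Of 12 upstream regulators, 2 rose in each comparison and 5, 4, 5 and 3 fell, among them the stress factor Atf4 (-1.79, -1.35, -1.56 and -1.58) and its target Trib3 (-2.50, -1.89, -2.26 and -1.78), and the medians were -0.18, -0.16, -0.30 and -0.11.

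Between genotypes, the 2 other BCL2 family genes that were higher in homozygous ΔPG cells in ES were the mitophagy genes Bnip3 (0.81) and Bnip3l (0.60), and the 2 that were lower were Bbc3 and Bax. Of the remaining lists, Xiap (0.69) and Usp9x (0.65), which encodes a deubiquitinase of Mcl1, were higher, and Htra2 (-0.85), Endog (-0.56), Tradd (-0.94), Trib3 (-0.52) and Trp53 lower, in the comparison that followed GC content. After RA the called genes of these lists were Bbc3 and Trp53 in ΔPG, and Bnip3 (-0.51) and Tnfrsf1a (-0.54) in ΔG. In undifferentiated ΔG cells Bnip3 was among the genes called, lower in homozygous cells (-0.81).

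For each member that spanned at least 1 on the log2 scale within a table, the 2 genes with the most similar course over its 12 samples were found by Pearson's r, among 5043 genes in ΔPG and 4441 in ΔG that spanned as much with a mean of at least 3. Bmf was closest to Crabp2 and Meox1 in ΔG (r = 0.998 and 0.998) and to Fat1 and Zfp768 in ΔPG (0.994 and 0.994). Bcl2l11 had Igdcc3 among its closest genes in ΔG (0.997) and was closest to Myo5a and Colec12 in ΔPG (0.988 and 0.988). Bcl2 was closest to Emp3 and Lrrc58 in ΔG (0.979 and 0.976) and to 2900073G15Rik and Foxa2 in ΔPG (0.997 and 0.996). Bok was closest to Limch1 and Col4a1 in ΔG (0.998 and 0.997) and to Arhgef25 and Nfatc4 in ΔPG (0.983 and 0.978), and Bid to Ebna1bp2 and Nfe2l2 (0.996 and 0.994) and to Slc3a2 and Ubtf (0.992 and 0.992). Bcl2l1 qualified in ΔG alone, where it was closest to Kifc3 and Card10 (0.961 and 0.950). Among the genes named, Crabp2 was also on the list of RA response markers and Foxa2 on that of extraembryonic endoderm. All 12 samples fall into RA and ES groups, so these values describe mostly the step between both.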

How the data were processed

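RNA-seq of 24 samples was used. The authors made stranded total RNA libraries, aligned the reads to NCBI37/mm9 with TopHat2 2.1.0, removed duplicates with Picard, assigned them to genes in a strand-aware way with HTSeq 0.6.0, and transformed the counts with DESeq2 1.14.1. The deposited values are rlog values (log2 scale), with 1 table for each line. Whether rlog was run blind to the groups is not given in the sources used here. Each table lists 33924 genes, of which 21979 (ΔPG) and 22048 (ΔG) varied and were tested, and the others were 0 in every sample. The tables hold no counts, so depth is unknown and counting intervals cannot be given.

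Linear models of limma 3.58.1 in R 4.3.3 (eBayes with trend) were fitted to the 6 samples of a comparison, or to the 12 of a table for the difference between RA effects, in 10 comparisons. An exact permutation test of 3 against 3 samples cannot go below p = 0.1. All 10 members are named, with every sample's value where they were called in a comparison, and of other lists at most the 3 genes with the widest difference, 5430416N02Rik, and Trp53 beside Pmaip1. Genes of the lists beyond these 3, such as Bax and Tnfrsf1a, were named after their values had been seen, and some genes are not reported here. The members and lists were chosen with earlier results of these data known. Exon lengths and GC content came from GENCODE vM1 on NCBIM37. The GC trend was a lowess curve (span 0.3) of each sample's deviation against exonic GC content, over genes with a mean of at least 3. Alternatives were other limits, filters, scalings, all samples of a table in the fit, a replicate block and leaving out each replicate. The promoter windows came from RefSeq (GRCm38.p6), whose start can differ from that of GENCODE. In simulations drawn from each table, 200 genes with a mean of at least 3 were shifted by 1 (log2). In the comparisons of 2 groups 188 to 200 were recovered, and 173 (ΔPG) and 180 (ΔG) in the difference between RA effects. False calls numbered 0 to 10. The noise was drawn for each gene on its own, with no GC trend in it. False calls that a trend shared by many genes could give are therefore not covered. The recovery of smaller shifts, or of low genes such as Bcl2, was not tested. Summaries were made in Python 3.11.15 (numpy 2.4.6, pandas 2.3.3). The RIP-seq, Capture-C and 4C-seq libraries of the study were not analysed here.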

Additional observations from a re-analysis of the deposited data

Results flagged for a closer look

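The effect of RA differed between homozygous and heterozygous ΔPG cells by a test of the difference itself for Bok (0.69), Bmf (0.58) and Bak1 (0.52), the values being the effect in homozygous minus that in heterozygous cells. GC content moved with this difference (r = 0.695 across genes), and with the trend removed the values were 0.21, 0.32 and 0.14.

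A second set of values had every sample of a group on opposite sides in the 2 lines, and the difference between the lines was not tested, since the tables were normalized separately. In ES, Bcl2l1 was -0.57 in homozygous against heterozygous ΔPG cells and 0.30 in ΔG cells, and Bid was -0.41 and 0.16. In RA, Bcl2l1 was -0.20 in ΔPG and 0.31 in ΔG cells. The RA difference of Mcl1 in heterozygous cells was 0.20 in ΔPG and -0.15 in ΔG, and the ΔG value was 0.10 after quantile normalization.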

How the results depend on the processing

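Of 170 counts of called members under other settings, 156 stayed within 1.5 times the main count and 14 moved. Without a limit on the size of the difference, the count was 8 for RA in heterozygous ΔPG cells, 1 for the genotype in ΔPG RA, 5 for the difference between RA effects in ΔPG, 1 for the genotype in ΔG ES and 2 in ΔG RA. With an adjusted p under 0.05 and a fold over 1.5, it was 1 for the genotype in ΔPG ES and 1 for the difference between RA effects in ΔPG. With the GC trend removed it was 0 for both, and 1 for the genotype in ΔG ES, where it was also 1 over genes with a mean of at least 3, with all 12 samples in the fit and with the length trend removed. The cause was not tested. Leaving out single replicates gave 0 to 1 members for the genotype in ΔG ES, the member being Pmaip1 without homozygous replicate 2, 3 to 4 for the genotype in ΔPG ES, 2 to 3 for the difference between RA effects in ΔPG, and 5 to 7 for the 4 RA comparisons.

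The replicate block changed no count: it gave 5, 6, 6 and 6 called members for RA in heterozygous and homozygous ΔPG and heterozygous and homozygous ΔG cells, 4 for the genotype in ΔPG ES, 3 for the difference between RA effects in ΔPG, and 0 elsewhere. Samples with the same replicate number deviated from their group means with correlations between -0.0255 and 0.0855. Among 3 candidates each, 7 of 24 correlated best with their own number. Pairing by number was therefore not seen, but deviations within groups of 3 cannot exclude a shared batch.

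For single members, 1610 of 1670 values kept their status as called or not called. A call was lost in 32 and gained in 28, and 0 called values changed direction. Of the 1610, 54 changed sign and were called in neither setting, among them Mcl1, Pmaip1 and Bad under quantile normalization. Bcl2, with a mean under 3, could not be included where trends were removed or low genes left out. Without counts, what the depth limits is unknown.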
